A study of Mus musculus with 2 samples.

Results

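The transcription factor genes Mef2a, Mef2b, Mef2c, Mef2d and Srf and the coactivator gene Myocd were measured in hearts of mouse embryos at embryonic day 10.5. They were taken by symbol and are 6 of the 43346 genes in the tables, with 29 of 103639 transcripts. The series holds 1 group, heart of strain B6NCrl (a C57BL/6N substrain) with no altered gene or treatment named in the labels, in 2 libraries. Replicate 1 was made from 69 pooled embryos and replicate 2 from 51, males and females together, with 10 ng of total RNA longer than 200 nt per library. A pool averages over embryos and over every cell type dissected with the heart. With 1 group of 2 pools there is no contrast of conditions and no p-value, so the only error is the spread between the pools, given as an SD (n = 2).

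MEF2 proteins bind DNA as dimers through a MADS box and an adjoining MEF2 domain, and they switch on muscle genes when released from class IIa histone deacetylases. SRF is a MADS-box factor too, and binds CArG boxes in genes of the contractile apparatus, the actin cytoskeleton and the immediate early response. Myocardin, encoded by Myocd, binds SRF and not DNA itself, and is a strong activator of heart and smooth muscle genes. Mef2c and Srf are both known to be needed for the formation of the mouse heart.

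The 2 libraries held 45205713 and 41070978 expected counts (reads assigned to features by the authors' estimate). All 13 heart muscle markers, among them the sarcomere genes Actc1, Myl7, Myl2 and Tnnt2, were detected at 1 TPM or more in both pools. TPM is a relative abundance divided by transcript length. The pools stood apart in heart muscle and liver markers. The summed heart muscle markers reached 21943 TPM in replicate 1 and 36352 TPM in replicate 2, and the 8 liver markers reached 1324 and 53.8 TPM. Skeletal myoblast markers, whose cells also use MEF2 factors, summed to 6.61 and 2.25 TPM. Smooth muscle markers, some of which early heart muscle shares, summed to 2013 and 2493 TPM, mostly from Acta2 (1622 and 1946 TPM). Of these 7 markers, 4 were higher in replicate 2 and 3 in replicate 1 (Lmod1, Actg2 and Myh11). None of the 5 skeletal or 7 smooth muscle markers was at 0 in both pools. In bulk tissue, fewer cells of a type and less RNA per cell cannot be told apart.

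MEF2 genes carry alternative coding exons, shown here because the transcript results turn on them. They were read from GENCODE M21 transcripts (GRCm38, the same assembly as mm10), 5′ to 3′. In Mef2a and Mef2d a pair of neighbouring exons is used in a mutually exclusive way. The pair encodes a stretch just after the MEF2 domain, and that of Mef2d is shown because its estimated use was nearly one-sided. Capitals mark the bases identical to the other exon of the same pair in a global alignment.
Mef2d upstream exon, 138 nt, chr3:88158034-88158171, plus strand: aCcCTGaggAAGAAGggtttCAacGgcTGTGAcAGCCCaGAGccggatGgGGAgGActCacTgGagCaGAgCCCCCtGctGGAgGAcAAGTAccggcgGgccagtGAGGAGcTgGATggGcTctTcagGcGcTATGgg
Mef2d downstream exon, 135 nt, chr3:88158221-88158355, plus strand: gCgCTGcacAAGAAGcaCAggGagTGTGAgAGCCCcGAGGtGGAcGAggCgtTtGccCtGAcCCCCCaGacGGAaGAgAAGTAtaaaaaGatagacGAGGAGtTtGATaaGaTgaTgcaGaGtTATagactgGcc
The paired exons of Mef2d shared 54.8% of bases, counted over the shorter exon. The upstream exon of Mef2a, of 132 nt, shared 56.8% of bases with the upstream and 53.0% with the downstream exon of Mef2d. Between Mef2c and Mef2d, exons in the same position were more alike than exons in opposite positions. Their upstream exons shared 66.7% and their downstream exons 66.7%, against 60% for the Mef2c upstream with the Mef2d downstream exon and 49.3% for the reverse.

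A second alternative exon, of 24 nt in Mef2a and Mef2c and 21 nt in Mef2d, lies further downstream. It is known as the beta exon, adds a short acidic segment to the activation domain, and is used above all in striated muscle and brain. Capitals mark the exon, and the lower case letters are the 15 bases of each neighbouring exon in the spliced transcript.
Mef2a beta exon, chr7:67244521-67244544, minus strand: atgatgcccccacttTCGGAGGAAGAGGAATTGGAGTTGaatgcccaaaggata
Mef2c beta exon, chr13:83654598-83654621, plus strand: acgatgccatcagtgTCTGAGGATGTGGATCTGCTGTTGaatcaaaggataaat
Mef2d beta exon, chr3:88161781-88161801, plus strand: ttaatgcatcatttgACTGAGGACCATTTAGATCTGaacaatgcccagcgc
The Mef2a and Mef2c exons were identical at 17 of 24 bases (70.8%). The Mef2d exon matched Mef2c at 15 of 21 bases (71.4%) and Mef2a at 13 of 21 (61.9%).

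Myocd has a cassette exon of 144 nt, shown because the transcript with the largest difference in share between the pools holds it. Its coordinates are chr11:65184488-65184631 on the minus strand, and capitals again mark the exon between 15 bases of each neighbour.
Myocd cassette exon, 144 nt: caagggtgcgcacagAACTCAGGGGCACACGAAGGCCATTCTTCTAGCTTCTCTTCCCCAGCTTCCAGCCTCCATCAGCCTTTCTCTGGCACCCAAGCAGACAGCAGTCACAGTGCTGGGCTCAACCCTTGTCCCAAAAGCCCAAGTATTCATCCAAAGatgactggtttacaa

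Myocd, Mef2a, Mef2c and Mef2d lay at similar levels, Srf lay several-fold lower, and Mef2b was close to absent. Of the 6 genes, 5 were detected at 1 TPM or more in both pools, the exception being Mef2b. Of the 15 pairs of genes, 9 differed by more than the spread between pools, and these were all the pairs that contain Srf or Mef2b. A pair was counted when both pools gave the same order and the mean log2 ratio of TPM passed a limit. That limit combined, for both genes, the 95th percentile of the between-pool differences of the 500 genes nearest in TPM.

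Myocd (ENSMUSG00000020542.14, chromosome 11, 65176561 to 65269989, minus strand) was measured at 43.8 TPM in replicate 1 and at 61.9 TPM in the other pool (52.9 ± 12.8 TPM). Its level was above that of 76.2% of the 12231 protein-coding genes detected in both pools. It rested on 2910 and 4487 expected counts.

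Mef2a (ENSMUSG00000030557.12, chromosome 7, 67231163 to 67372858, minus strand) stood at 33.7 and 54.0 TPM (43.8 ± 14.3 TPM). Mef2c (ENSMUSG00000005583.12, chromosome 13, 83504034 to 83667080, plus strand), the MEF2 gene known from work in mice to be essential for heart looping and the right ventricle, stood at 35.2 and 42.6 TPM (38.9 ± 5.19 TPM). Mef2d (ENSMUSG00000001419.13, chromosome 3, 88142372 to 88172086, plus strand) stood at 29.7 and 40.0 TPM (34.9 ± 7.28 TPM). The 3 genes therefore held nearly equal parts of the summed Mef2 TPM, which was 99.1 TPM in replicate 1 and 137 TPM in replicate 2. Mef2a held 34.0% and 39.5% of it, Mef2c 35.6% and 31.1%, and Mef2d 29.98% and 29.3%. Mef2c was the highest of the MEF2 genes in replicate 1 and Mef2a in replicate 2. The log2 ratio of Mef2a over Mef2c was -0.06 in one pool and 0.34 in the other, so their order is not resolved. That of Mef2a over Mef2d was 0.31 ± 0.18 against a limit of 0.93, and that of Mef2c over Mef2d was 0.17 ± 0.11 against a limit of 1.04.

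Srf (ENSMUSG00000015605.5, chromosome 17, 46548329 to 46556175, minus strand), the DNA-binding partner of myocardin, stood at 7.05 and 5.9 TPM (6.47 ± 0.813 TPM), from 856 and 646 counts. Both pools fell below the lowest value of Mef2a, Mef2c, Mef2d and Myocd, and Srf was above 22.5% of detected protein-coding genes. Myocd exceeded Srf by a log2 ratio of 2.64 in replicate 1 and 3.39 in replicate 2 (3.01 ± 0.53, limit 1.48). The SRF transcript therefore lay below the transcript of its coactivator in both pools.

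Mef2b (ENSMUSG00000079033.5, chromosome 8, 70139711 to 70167488, plus strand), a MEF2 gene better known from B cells, stood at 0.44 and 0.19 TPM (0.315 ± 0.177 TPM), from 15 and 6 counts. The deposited credibility intervals of its TPM, 0.192 to 0.713 and 0.0885 to 0.468, overlapped and stayed under 1 TPM. It held 0.444% and 0.139% of the summed Mef2 TPM. Even Srf exceeded it by a log2 ratio of 4.48 ± 0.68, past the limit of 3.05. Mef2b overlaps Borcs8 on the same strand, a gene with 701 and 574 counts, so its few reads are also uncertain in origin.

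**Figure D1:**
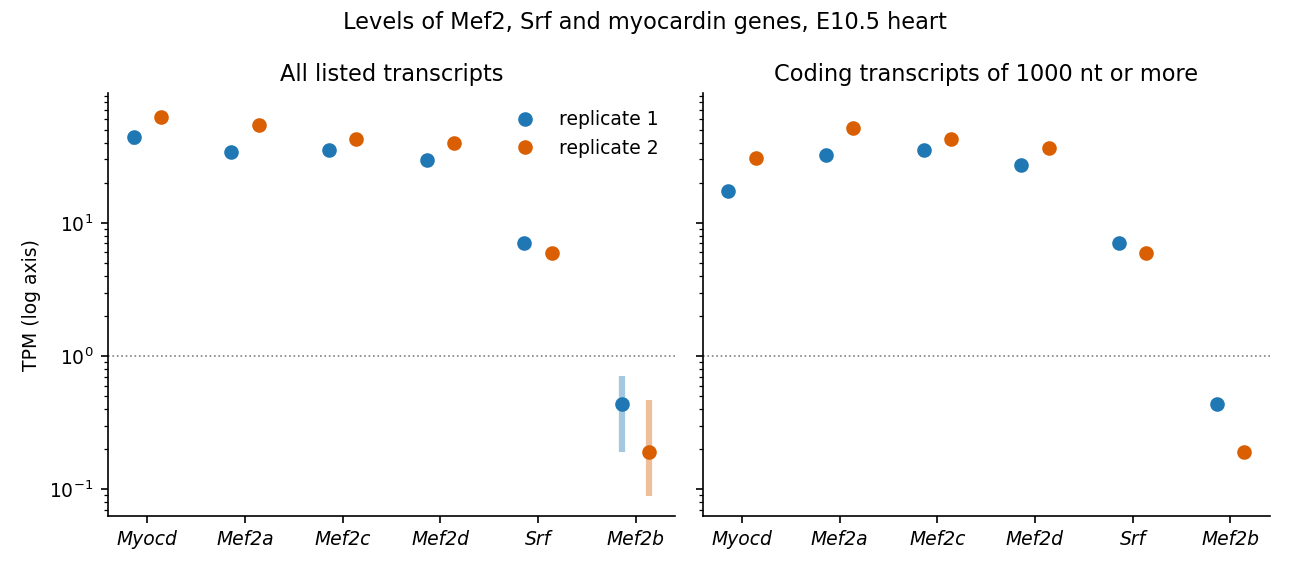
TPM of each gene in replicate 1 (blue) and replicate 2 (orange) on a log axis, over all listed transcripts (left) and over protein-coding transcripts of at least 1000 nt (right). Pale bars on the left are the deposited credibility intervals, which are narrower than the points for most genes, and the dotted line is 1 TPM. Myocd leads on the left at 52.9 ± 12.8 TPM and lies below Mef2a, Mef2c and Mef2d on the right at 23.8 ± 9.36 TPM.

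The first place of Myocd depended on 2 short transcript models. Myocd-205, a noncoding model of 377 nt, held 19.2 and 26.6 TPM, and Myocd-204, a coding model of 621 nt, held 7.19 and 4.38 TPM. Together with the other transcripts they divide the counts of the gene by a mean length of 2282 nt in replicate 1 and 2741 nt in replicate 2, against 4459 and 4507 nt for Mef2a. Over protein-coding transcripts of at least 1000 nt, an alternative added after the data were seen, Myocd stood at 17.2 and 30.4 TPM (23.8 ± 9.36 TPM). On the same basis Mef2a stood at 32.5 and 51.8 TPM, Mef2c at 35.2 and 42.6 TPM, and Mef2d at 26.9 and 36.4 TPM. The log2 ratio of Myocd over Mef2a was then -0.84 ± 0.11 (limit 1.15), in place of 0.29 ± 0.13 (limit 0.94) over all transcripts. The same 9 pairs passed their limits on both bases, with Myocd over Srf at 1.83 ± 0.76 (limit 1.58).

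Myocd, Mef2a, Mef2d and Mef2c were higher in replicate 2, where heart muscle, endothelial, smooth muscle and red cell markers were also higher in median. Srf differed little. Differences between the pools were measured as the log2 ratio of TMM-scaled expected counts, replicate 2 over replicate 1. Each fold is given with a 95% interval that covers counting error only. Myocd had a log2 ratio of 0.87, a 1.83-fold difference (1.75 to 1.92). Mef2a had 0.79, or 1.73-fold (1.67 to 1.80), Mef2d 0.54, or 1.46-fold (1.39 to 1.52), and Mef2c 0.41, or 1.33-fold (1.27 to 1.38). Srf was at -0.16, a fold of 0.897 (0.808 to 0.994), and with ERCC spike-in scaling its sign turned (0.17). Mef2b was at -1.02, but its interval, 0.151 to 1.30, spans no difference.

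A gene was counted as differing between the pools where its mean count was at least 50, its ratio at least 2-fold, and its deposited TPM intervals did not overlap. By this rule 0 of the 5 genes with enough counts differed, while 7.06% of all 14124 genes tested did. A ratio at least as far from 0 as that of Myocd was found for 9.74% of genes, and the share was 11.5% for Mef2a, 21.1% for Mef2d, 30.5% for Mef2c and 65.3% for Srf. Deposited intervals alone did not overlap for these 5 genes, as for 52.3% of all genes tested. Spike-in scaling moves the median of all genes from -0.005 to 0.32. On that scale Myocd (1.20) and Mef2a (1.12) passed the 2-fold rule, where 9.18% of genes did, and Srf lay below the median. Unscaled TPM moves the median to -0.11. On it Myocd was at 0.50, a fold of 1.41. Myocd, Mef2a, Mef2d and Mef2c were higher in replicate 2 under every scaling tried, and the 13 heart muscle markers were all higher there as well (median 0.81). So were all 7 red cell markers (median 0.35). Of 8 endothelial markers (median 0.56), 6 were higher in replicate 2 and 2 in replicate 1. Of 7 smooth muscle markers (median 0.36), 4 were higher in replicate 2 and 3 in replicate 1. The part of heart muscle, endothelial, smooth muscle or red cell content or of the liver transcripts in these differences was not tested.

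**Figure D2:**
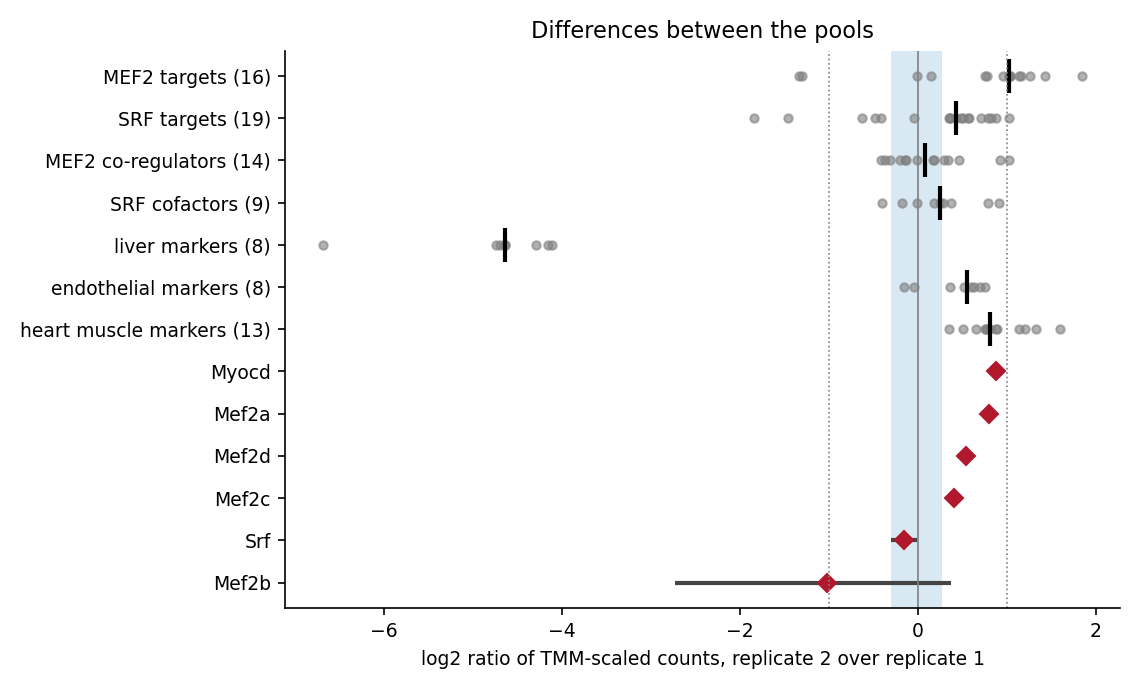
Log2 ratio of TMM-scaled counts, replicate 2 over replicate 1, for the 6 genes (red diamonds, with 95% counting intervals as dark lines) and for genes of related lists and marker lists (grey points, black bars at list medians, number of genes with a mean count of at least 10 in brackets). The shaded band holds the middle 50% of all genes and dotted lines mark 2-fold. Myocd lies at 0.87, Mef2a at 0.79, Mef2d at 0.54 and Mef2c at 0.41. Heart muscle markers run from 0.35 to 1.60 (median 0.81) and endothelial markers from -0.16 to 0.75 (median 0.56), so the ranges overlap. Srf at -0.16, whose sign turns with spike-in scaling, lies in the band.

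Mef2a, Mef2c, Mef2d and Myocd were each carried by a few of their transcripts. By TPM the leading transcript was the same in both pools for Mef2a and Mef2c but not for Mef2d and Myocd. By counts it was the same for Mef2a, Mef2d and Myocd but not for Mef2c. A share is the percent of the TPM of a gene that a transcript holds. It is an estimate, since a read can fit several transcripts. Of the 29 transcripts, 14 reached 1 TPM in both pools and 6 were at 0 in both. The transcripts with the highest mean share in Mef2a, Mef2c, Mef2d and Myocd (Myocd-205 in the last) each differed in share by under 10 percentage points between the pools, beside 19.9% of such transcripts of 9861 genes, which differed by 10 points or more. Over all 29 transcripts, a difference of 10 points or more was found for 1, Myocd-203. Among the 58373 transcripts of genes with a mean count of at least 50 and more than 1 listed transcript, it was found for 8.75%. Srf, with 1 listed transcript, and Mef2b, with a mean count of 10.5, are outside that set.

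Mef2a was carried by Mef2a-208, a model of 5538 nt with 755 bases found in no other listed transcript. It held 65.6% of Mef2a TPM in replicate 1 and 67.0% in replicate 2, and 81.8% and 82.6% of its counts. Mef2a-203 held 17.0% and 13.8% of TPM, and Mef2a-201 held 12.3% and 15.3%, so that these 2 were in opposite order in the pools. No base of either is unique to it among the listed transcripts. Their deposited TPM intervals overlapped in each pool, 2.25 to 7.51 and 2.02 to 7.44 TPM in replicate 1 and 5.82 to 12.2 and 2.91 to 9.13 TPM in replicate 2.

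Mef2c had 3 listed transcripts. Mef2c-203 starts at its own first exon, 69382 bases downstream of the first exon of Mef2c-201 and Mef2c-202. It held 64.6% and 61.0% of TPM but 49.4% and 45.6% of counts, and Mef2c-202 held 32.6% and 36.2% of TPM and 46.6% and 50.5% of counts. Mef2c-203 thus led by TPM in both pools, while by counts it led in replicate 1 and Mef2c-202 led in replicate 2. Mef2c-201 held 2.82% and 2.85% of TPM. All 3 models had another length in the M21 annotation than in the tables, and M21 lists 31 Mef2c transcripts, so a wider annotation could divide these reads in another way.

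Mef2d was split between a pair of long coding models. Mef2d-204, of 3488 nt, held 41.8% and 35.9% of TPM, and Mef2d-201, of 5401 nt, held 38.8% and 42.3%. The leading transcript by TPM therefore differed between the pools, as it did for 10% of 9861 genes with a mean count of at least 50 and more than 1 listed transcript. In replicate 1 their deposited intervals overlapped, at 10.9 to 13.4 TPM and 10.5 to 12.1 TPM. In replicate 2 they did not, at 12.5 to 15.4 TPM and 15.6 to 17.6 TPM. By counts Mef2d-201 led in both pools, with 55.9% and 60.5%. Mef2d-203 held 7.46% and 9.92% of TPM, and the noncoding Mef2d-205, of 502 nt, held 6.65% and 5.29% from 24.2 and 23.4 counts.

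Myocd showed the widest gap between TPM and counts. The noncoding Myocd-205 held 43.8% and 42.9% of TPM but 5.58% and 4.52% of counts. Myocd-203, the longest coding form at 5114 nt, held 33.3% and 44.9% of TPM and 76.4% and 85.3% of counts. By TPM Myocd-205 therefore led in replicate 1 and Myocd-203 in replicate 2, while by counts Myocd-203 led in both. The level of Myocd-203 was 14.6 TPM in replicate 1 and 27.8 TPM in replicate 2, and the deposited intervals, 12.6 to 15.97 and 24.99 to 28.7 TPM, were apart. Myocd-202, which lacks the 144-nt exon shown above, stayed at 2.62 and 2.6 TPM, or 5.97% and 4.19% of TPM. Myocd-204 held 16.4% and 7.08%. Between the pools, the intervals of Myocd-205 (15.1 to 23.0 and 21.2 to 31.4 TPM), Myocd-204 and Myocd-202 overlapped, and among the transcripts of Myocd with 5% or more those of Myocd-203 alone did not. Myocardin is known in a longer form of heart muscle and a shorter form of smooth muscle with a later start of translation. Of the long models, Myocd-203 encodes 983 and Myocd-202 935 amino acids. Myocd-201, which encodes 855, was listed at 0 TPM in both pools, with upper interval bounds of 0.212 and 0.244 TPM. No base of Myocd-201 is unique to it among the listed transcripts, so its 0 rests on how shared reads were divided and does not show that a shorter form was absent.

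Srf had a single listed transcript, so its reads were not divided, although M21 lists 4. The quantified model of Srf-201 has 4093 nt against 2616 nt in M21, and the TPM of Srf depends on that length. For Mef2b the tables gave all TPM to Mef2b-201 in both pools. The posterior mean instead gave Mef2b-201 29.9% and 28.6% and spread the rest over the other 3 models. With 15 and 6 counts the transcripts of Mef2b were not distinguishable at this depth.

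**Figure D3:**
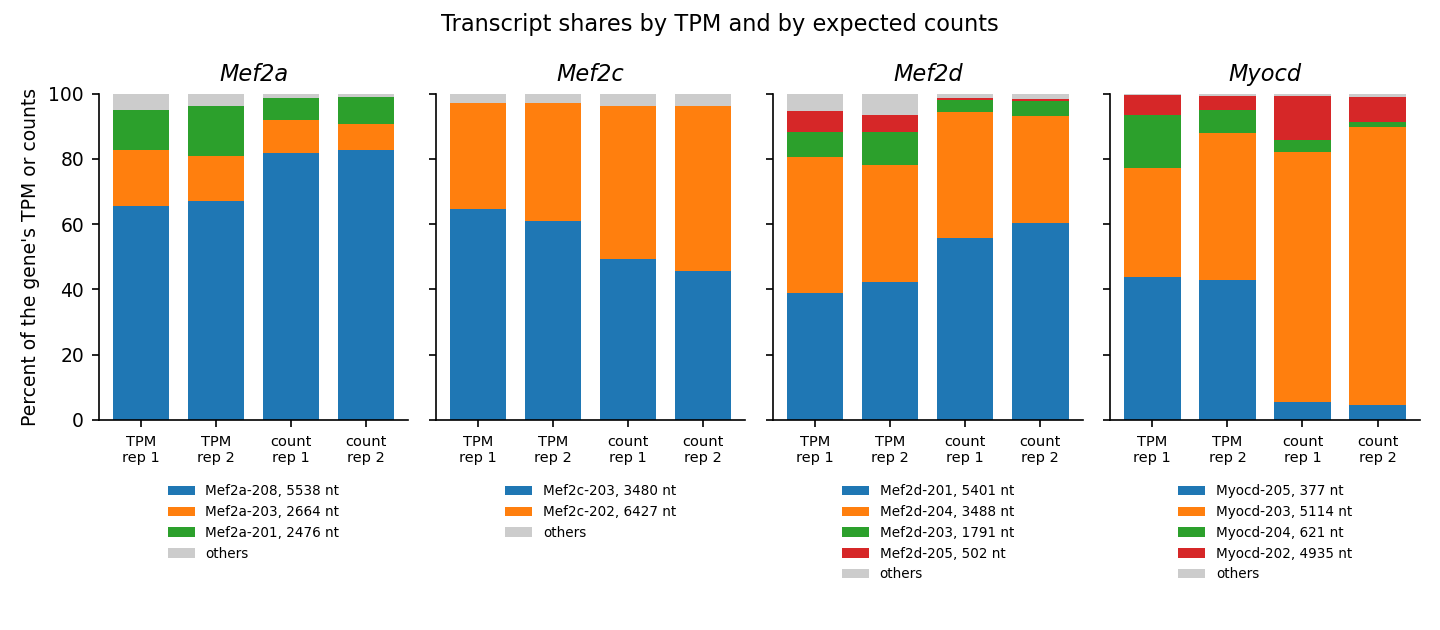
Share of each gene held by its transcripts, in percent of TPM (left pair of bars) and in percent of expected counts (right pair) for replicates 1 and 2. Coloured segments are transcripts that hold at least 5% by either measure, labelled with their length in nt, and grey is the rest. Myocd-205 holds 43.8% and 42.9% of Myocd TPM but 5.58% and 4.52% of its counts, and Mef2a-208 leads Mef2a by both measures.

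Summed over the listed transcripts, the estimated use of the mutually exclusive exons differed between Mef2a and Mef2d, in the same way in both pools. For each exon, the share is that of the transcripts with the exon among the transcripts that span its position. In Mef2d the upstream exon was in 97.2% and 96.8% of spanning TPM and the downstream exon in 2.78% and 3.25%. In Mef2a the upstream exon was in 70.1% and 70.2%. The gap between the genes was wider than the difference between pools within either gene. By counts, from the same models, the Mef2d upstream exon was at 98.8% and 98.7% and that of Mef2a at 83.3% and 83.7%. These shares depend on which models are listed. In Mef2d the downstream exon is only on a model of 1767 nt, beside 5401 nt for Mef2d-201 with the upstream exon. In Mef2a the upstream exon is on the 5538-nt Mef2a-208, while Mef2a-201 and Mef2a-203, which lack it, are of 2476 and 2664 nt. In Mef2c all 3 listed transcripts hold the downstream exon, so no share could be given. In M21, Mef2c-202 adds to it a 60-nt form of the upstream exon (chromosome 13, 83625265 to 83625324), with 32.6% and 36.2% of TPM. The quantified model of Mef2c-202 has 6427 nt against 6277 nt in M21, so this exon and its share are less certain. The full 144-nt upstream exon is in 10 of 31 Mef2c transcripts of M21 and in none of those listed in the tables.

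By the listed transcript models, the beta exon was used less in Mef2d than in Mef2a and Mef2c. In Mef2a it was in 68.1% and 68.8% of spanning TPM, carried by Mef2a-208. In Mef2c it was in 64.6% and 61.0%, carried by Mef2c-203. In Mef2d it was in 8.24% and 10.9%, carried by Mef2d-203, whose only bases not found in another listed transcript are the 21 of this exon. By counts the shares were 82.3% and 82.9% in Mef2a, 49.4% and 45.6% in Mef2c and 3.47% and 4.57% in Mef2d. Mef2d was thus lowest in both pools by both measures, and Mef2a was highest by both. Both measures rest on the same listed models. The exon is carried by the 5538-nt Mef2a-208 in Mef2a, but in Mef2d only by a model of 1791 nt. Mef2d-201 and Mef2d-204, of 5401 and 3488 nt, lack it, so reads of an unlisted long form with the exon would mostly go to models without it. The part of this in the contrast was not tested. The Mef2c model that holds the exon differs in length between the tables and M21, so its share is less certain. In Mef2a the single transcript above 0 TPM with the beta exon, Mef2a-208, also holds the upstream exclusive exon.

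The 144-nt cassette exon of Myocd was in 84.8% and 91.5% of the TPM of transcripts that span it, and in 85.2% and 91.7% by counts. Of all Myocd TPM, the models with the exon held 33.3% in replicate 1 and 44.9% in replicate 2, because the short models that do not reach it held much of the rest. Of the exons compared, this was the only one whose share of its gene differed by 10 points or more between the pools. By counts, at 76.4% and 85.3%, it did not.

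**Figure D4:**
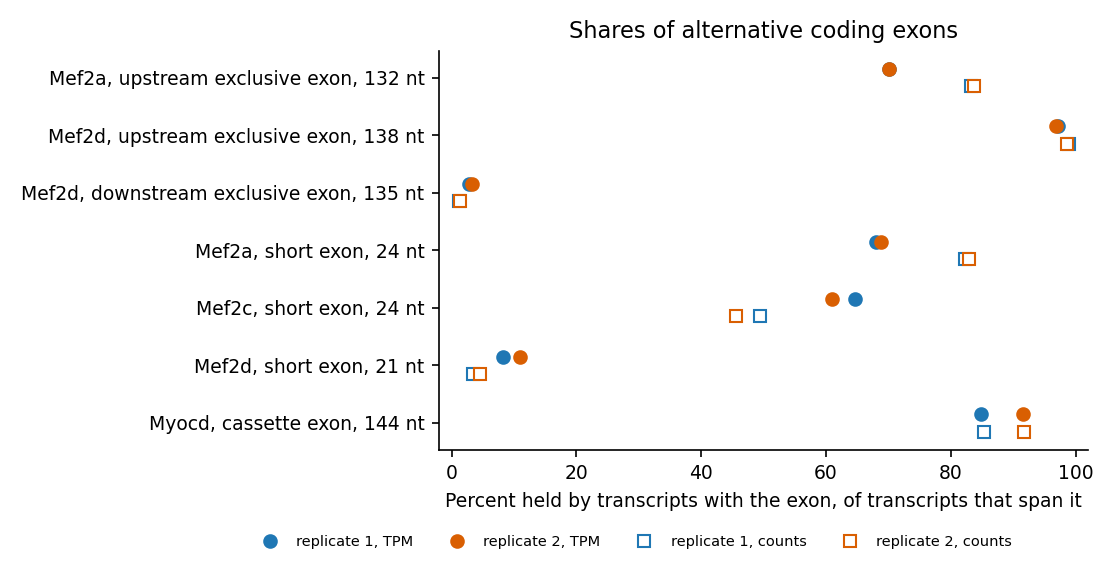
Percent held by transcripts with an alternative coding exon, of the transcripts that span its position, by TPM (filled circles) and by expected counts (open squares) in replicate 1 (blue) and replicate 2 (orange). The Mef2d upstream exon lies at 97.2% and 96.8% by TPM against 70.1% and 70.2% for that of Mef2a, and the Mef2d short exon at 8.24% and 10.9% lies below those of Mef2a and Mef2c.

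Cofactors of SRF were all present. All 9 genes of the list were detected in both pools, and 0 of 9 differed between the pools by the 2-fold rule, beside 7.06% of all genes tested. The LIM protein genes Csrp2 (247 and 229 TPM), Csrp1 (168 and 202 TPM) and Fhl2 (93.4 and 151 TPM) were the most abundant, and LIM proteins of this kind are known as partners of SRF in muscle. Of the myocardin-related factors, which carry signals from actin to SRF, Mrtfa stood at 22.2 and 15.4 TPM, and Mrtfb, named after its values were seen, at 17 and 11.6 TPM. Both were below Myocd by TPM in each pool. Over long coding transcripts Myocd itself was at only 17.2 TPM in replicate 1. Mrtfa and Mrtfb were not restricted to long coding transcripts, so their order against Myocd on that basis is not known. The median log2 ratio of the list was 0.25, with 6 genes higher in replicate 2 and 3 in replicate 1, beside -0.005 for all genes. With unscaled TPM it was 0.09, beside -0.11 for all genes.

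Regulators of MEF2 activity were detected for 14 of 14 genes. Hdac5, a class IIa histone deacetylase that represses MEF2 proteins, led at 71.0 and 87.3 TPM. The calmodulin-dependent kinase gene Camk2d stood at 48.2 and 83.3 TPM, and the arginine methyltransferase gene Carm1 at 48.8 and 41.1 TPM. Mapk7, which encodes a kinase that phosphorylates MEF2 proteins, stood at 40.8 and 36.1 TPM. By the 2-fold rule 1 of 14 differed, Hdac9, a deacetylase that is itself a known MEF2 target, higher in replicate 2 (7.51 and 14.2 TPM, log2 ratio 1.02). That count is at the share of all genes tested, 7.06%. The other 13 did not, with 7 genes of the list higher in each pool and a median of 0.08, which turned to -0.18 with unscaled TPM.

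Genes known as direct MEF2 targets were higher in replicate 2 for 13 of the 16 with a mean count of at least 10. Of 17, 14 were detected in both pools, and of 15 tested 9 were higher in replicate 2 by the 2-fold rule and 1 in replicate 1, beside 2.31% and 4.75% of all genes. The light chain gene Myl2 stood at 2516 and 5157 TPM, the natriuretic peptide gene Nppa at 2000.5 and 3797 TPM, the myosin gene Myh6 at 835 and 1342 TPM, and the desmin gene Des at 284 and 543 TPM. Of these Myl2 (1.14), Nppa (1.02) and Des (1.04) passed the rule and Myh6 (0.78) did not. Among the targets that passed the rule, the ratios furthest from 0 were those of the myoglobin gene Mb (1.84, from 23.0 and 76.8 TPM), the muscle creatine kinase gene Ckm (1.43, from 2.64 and 6.67 TPM), Myog (-1.31, from 1.95 and 0.73 TPM) and Xirp1 (1.26, from 34.2 and 76.4 TPM). Myog, a regulator of skeletal muscle, was the gene higher in replicate 1. Xirp2 was the target under 1 TPM in both pools, with 3 and 8 counts. The list median was 1.02. Myl2 and Myh6 are also in the heart muscle list, whose markers had a median of 0.81 with 4 of 13 past the rule. The part of heart muscle content in the list's difference was not tested, and a link to the level of any MEF2 gene was not tested.

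Genes known as SRF targets had a median nearer to 0. Of 19, 18 were detected in both pools, and of 19 tested 1 was higher in replicate 2 and 2 in replicate 1 by the 2-fold rule, beside 2.31% and 4.75% of all genes. The cardiac actin gene Actc1 stood at 6437 and 11048 TPM, the cytoplasmic actin gene Actb at 3929 and 2641 TPM, and the smooth muscle actin gene Acta2, which early heart muscle also expresses, at 1622 and 1946 TPM. Nppa is in this list as well and is the 1 gene higher in replicate 2. The 2 genes higher in replicate 1 were the smooth muscle genes Actg2 (5.82 and 1.45 TPM, log2 ratio -1.84) and Myh11 (0.56 and 0.19 TPM, -1.46). The list median was 0.42, with 13 genes higher in replicate 2 and 6 in replicate 1. All 7 smooth muscle markers are in this list, Actg2 and Myh11 among them, and Actc1 is in the heart muscle list. The part of smooth or heart muscle content in the list's difference was not tested, and a link to the level of Srf or Myocd was not tested. Counted once, 52 of the 56 related genes in the 4 lists were detected in both pools.

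SRF is known to regulate its own gene, and the promoter window of Srf is shown for its CArG boxes. The bases run from 100 to 29 before the RefSeq start site (GRCm38.p6, chr17:46556191-46556262, minus strand), with the boxes in capitals.
Srf promoter: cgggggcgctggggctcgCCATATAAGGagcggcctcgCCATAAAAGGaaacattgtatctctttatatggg
RefSeq windows of 250 bases before to 50 after the start were searched for the CArG box and the MEF2 site, on both strands. The pattern of each is its own reverse complement, and a box and a site cannot share a base. The CArG box was in 535 of 32851 windows (1.63%), and Srf had 2, with first bases 82 and 62 before the start. Of the 7 windows found for these genes, 1 held a CArG box, that of Srf, and 1 held a MEF2 site, that of Mef2a, against 0.557% of all windows for the MEF2 site. Among SRF targets with a window, 5 of 14 held a CArG box (Acta1, Actc1, Fhl2, Myl9 and Vcl), and among MEF2 targets 3 of 16 held a MEF2 site (Jun, Klf2 and Xirp2). These matches describe letters in a window and not binding, and the tables hold no measure of binding.

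Some counts are uncertain because genes overlap. Mef2a overlaps Lysmd4 on the opposite strand (581 and 780 counts against 4473 and 6525 for Mef2a). Mef2d overlaps the antisense gene 1700113A16Rik (157 and 79.7 counts against 3325 and 4073). Srf overlaps Gm26904 on the opposite strand (1.31 and 1.39 counts). How strand was treated in counting is not given in the labels or files used here.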

How the data were processed

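Total RNA from 2 pools of embryonic hearts was analysed. Per the labels and the deposited README text, reads were placed on mm10 with annotation M4. Which program made the estimates, in which version and with which strand setting, is not given in the labels or files used here. The authors deposited, per gene and per transcript, an expected count (an estimated number of reads), TPM, FPKM, and each transcript's percent of its gene. They also deposited posterior means of the counts, TPM and FPKM. The deposited credibility bounds of TPM, made by the authors with the posterior means, the posterior SD of counts and the lengths are treated as a score. A TPM can lie outside its bounds, which surround the posterior mean. Names, exons and transcripts came from GENCODE M21, in which 42462 of 43346 genes were matched and 884 were not. Feature totals were 45205713 and 41070978, with 43295923 and 39786163 assigned to mouse genes. At a count of 0, up to 3 counts remain possible, and counting intervals cover counting error only.

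Rounding to whole counts was used for TMM factors (edgeR 4.0.16, limma 3.58.1, R 4.3.3) and for size factors (DESeq2 1.42.0). Ratios used a prior count of 0.5. No test was run, since 0 residual degrees of freedom remain. The rest used pandas 2.3.3, numpy 2.4.6, scipy 1.17.1 and matplotlib 3.10.9 in Python 3.11.15. Scripts were tested on simulated data. Named were all 6 genes, their transcripts with at least 5% of TPM or counts, and the alternative coding exons in them. From each list the 4 most abundant genes, up to 4 under 1 TPM in both pools and up to 4 with the largest called ratio were named. The genes and lists were chosen with earlier results of these data known. Marker lists other than those printed (endothelial, cushion, epicardial, neural, neural crest, blood) are given with the other observations. Alternatives covered FPKM, posterior means, counts, pseudocounts, limits, scaling, thresholds and single pools. Of Myocd no promoter window was used here. Some exon sequences are not reported here.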

Additional observations from a re-analysis of the deposited data

How the results depend on the processing

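The number of pairs of genes past their limit was 9 of 15 under all 9 alternatives, including FPKM, posterior mean TPM, counts not divided by length, and without replicate 1 (9) or without replicate 2 (9). Leaving out a pool removed it from the ratios of the pairs only, and the limits still came from both pools. The number of the 6 genes that differed by 2-fold between the pools was 0, and became 2 (Mef2a and Myocd) with spike-in scaling, where 9.18% of all genes passed, and 2 at 1.5-fold, where 16.3% did. With counts in place of TPM, the transcripts whose share differed by 10 points went from 1 to 0, and so did the exons. Of 158 alternatives, 25 concerned such counts, of which 21 kept the count within 1.5 times. Of the others, 99 stayed within their limit and 34 did not. That limit was the counting interval for ratios of the 6 genes and the SD between pools for shares. For list medians it was the SD across the genes of the list, with the sign kept. A share from a single pool always lies within the SD of both pools, so those alternatives could not move and show nothing. No value can be given for a difference between pools when either pool is left out. No paired analysis was possible because there is 1 group. Depth limits Mef2b, which 15 and 6 counts cannot resolve further. For the other genes, counting error is smaller than the spread between pools, and the precision is set by the number of pools.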

Other observations

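Markers of other cell types were also counted. Endothelial cells are known to use Mef2c, and all 8 endothelial markers were detected in both pools, led by Egfl7 (155 and 139 TPM), Tek (34.5 and 54.0 TPM), Emcn (34 and 49.4 TPM) and Pecam1 (33.7 and 47.4 TPM). Their median log2 ratio, replicate 2 over replicate 1, was 0.56, with 6 genes higher in replicate 2 and 2 in replicate 1, and 0 of 8 differed by the 2-fold rule, beside 7.06% of all genes tested. Red cell markers had a median of 0.35 with 7 of 7 genes higher in replicate 2. The medians were -0.64 for 6 cushion and mesenchyme markers, -0.08 for 5 epicardial markers, -0.71 for 6 macrophage and platelet markers, -0.46 for 4 measured neural crest markers and -1.74 for 5 measured neural markers.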
